A study of Mus musculus with 386 samples.

Results

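The 15 postnatal day 2.5 (P2.5) oocyte libraries with the most transcript from 5 somatic genes are described here, out of all P2.5 libraries (numbered to P2.5_317) and 386 libraries in the series. For each library the counts scaled to equal library size (CPM) of Krt18, Vim, Sparc, Clu and Col3a1 were summed, and the 15 highest sums chose the members. The series profiled single germ cells that were picked by hand from dissociated ovaries of mice, and P2.5 libraries outnumber the 22 from embryonic day 17.5 (E17.5) and the 47 from P6.5. All members and the libraries they were set against carry the same labels: female germ cell, P2.5 and Smart-seq2, a method that copies polyadenylated RNA from 1 cell. The labels give no strain, genotype, treatment, animal or litter, and no image of the picked cells. By its title, the study is about gene regulation when oocytes in primordial follicles take different fates.

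Around this age the clusters of germ cells in the ovary break down, and surviving oocytes become wrapped by flat pregranulosa cells to form primordial follicles. Pregranulosa cells express the transcription factors WT1, GATA4, NR5A1 and FOXL2, the keratins KRT8 and KRT18, and KIT ligand, which acts on the receptor KIT on the oocyte surface. Around the follicles lie stromal cells rich in collagens, and the ovary is covered by a surface epithelium from which pregranulosa cells with the receptor LGR5 are known to come. The 5 genes of the score are shared among these cells: Krt18 encodes a simple-epithelial keratin, Vim the filament protein of mesenchymal cells, Sparc a matrix-binding glycoprotein, Clu the secreted chaperone clusterin, and Col3a1 a fibrillar collagen of stroma.

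The P2.5 libraries held between 435560 and 23982709 gene counts, and the 15 members between 1594717 and 15506873. Counts agreed within sampling noise in 24 pairs of P2.5 libraries, which were each counted as 1 cell, and 0 members were in such a pair. The comparison is therefore of 15 member cells with all other P2.5 cells, in which each pair is 1 cell. Because the labels name no animals, each group is 1 sample made of many cells, and no test was made. Intervals of ratios are exact conditional Poisson 95% intervals, which cover the counting of reads only. The members were chosen by their readout, so their higher levels of somatic genes describe the choice and are no finding on their own.

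The score fell steeply after the second library and then without a gap through the fifteenth. P2.5_66 had 4364 CPM from the 5 genes and P2.5_314 had 1361 CPM. P2.5_138, P2.5_182, P2.5_267, P2.5_92 and P2.5_115 lay between 214.3 and 291.6 CPM, and the other 8 members between 108.3 and 161.6 CPM. The last member, P2.5_281, had 108.3 CPM, and the first libraries outside had 101.3, 99.92 and 97.1 CPM. All other P2.5 libraries had a median of 10.1 CPM, and 20 of them had none of the 5 transcripts. Because P2.5_66 and P2.5_314 stand so far apart from the rest, results are given with and without them.

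**Figure D1:**
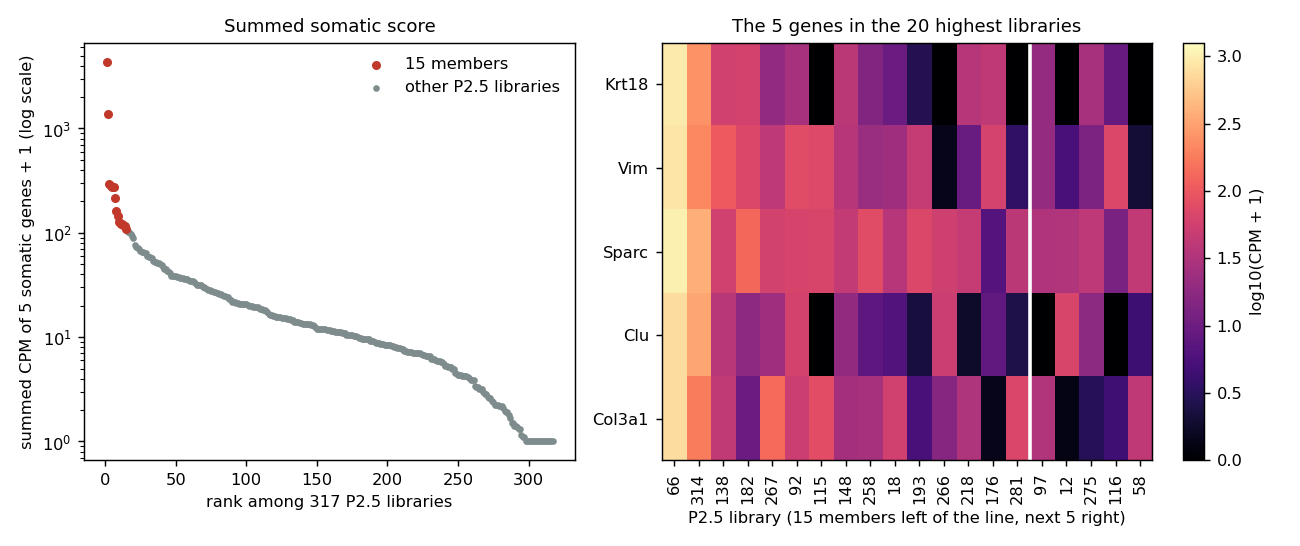
Left, the summed CPM of the 5 somatic genes plus 1 (log axis) in all P2.5 libraries by rank, with the 15 members in red and the other libraries in grey. Right, log10(CPM + 1) of each of the 5 genes in the 20 highest libraries, with the members left of the white line. P2.5_66 and P2.5_314 lie at 4364 and 1361 CPM, and the score passes from 108.3 to 101.3 CPM across the limit with no step.

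The 5 genes did not come together in every member. P2.5_66 held 926 CPM of Krt18, 871 of Vim, 1012 of Sparc, 777 of Clu and 778 of Col3a1, and P2.5_314 held 242.3, 216.2, 384, 336 and 182.8 CPM of the same genes. In both, all 5 genes were above every other P2.5 cell. P2.5_138, P2.5_267, P2.5_92 and P2.5_148 had at least 10 CPM of each gene. Krt18 was at 0 in P2.5_115, P2.5_266 and P2.5_281. P2.5_115 had 70.7 CPM of Vim, 64.2 of Sparc and 79.4 of Col3a1, P2.5_266 had 53.5 of Sparc and 51.1 of Clu, and P2.5_281 had 37.9 of Sparc and 66.3 of Col3a1. P2.5_176 had 40.5 CPM of Krt18 and 60.3 CPM of Vim beside 0.417 CPM of Col3a1. Sparc was above the highest other library (44 CPM) in 12 members, whereas Clu passed its highest other library (63.2 CPM) in 2 members.

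The 5 genes lie on 5 chromosomes (GENCODE M21 on GRCm38, the mm10 build). Krt18 is at chr15:102028180-102032027 on the plus strand, Vim at chr2:13573927-13582826 on the plus strand and Sparc at chr11:55394500-55423183 on the minus strand. Clu is at chr14:65968483-65981547 and Col3a1 at chr1:45311538-45349706, both on the plus strand.

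Every member was a germ cell library by its own markers. The summed level of 9 germ cell markers (Ddx4, Dazl, Dppa3, Mael, Taf4b, Sycp3, Sohlh1, Nobox and Figla) was 3116 CPM in P2.5_66, 4648 CPM in P2.5_314 and 4398 to 6768 CPM in the other 13 members. In the other P2.5 cells it ran from 3696 to 10851 CPM with a median of 6145 CPM. P2.5_66 was thus below every other P2.5 cell, and the members without it overlapped the other cells. That the somatic transcripts come from an attached cell, as the working name of the set has it, was not tested, since the files hold nothing on the shape of the picked cells.

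Over all measured genes, the split into higher and lower genes depended on the filter on low values. A gene counted as measured when 1 of the sums held at least 1 CPM and 3 or more cells had a count of it, and 0.5 CPM was added to both sums. Of 15545 measured genes, 1575 were at least 2-fold higher in the summed counts of the member cells (10.1%) and 426 at least 2-fold lower (2.74%). Without P2.5_66 the counts over the same genes were 1284 higher (8.26%) and 422 lower (2.71%). Without P2.5_66 and P2.5_314 they were 1171 higher (7.53%) and 499 lower (3.21%). Of the measured genes, 1550 reached 1 CPM in the members' sum alone, and such genes can only count as higher. Over the 13995 genes with at least 1 CPM in the other cells, 524 were at least 2-fold higher (3.74%) and 426 lower (3.04%) with all members. Without P2.5_66 and P2.5_314, 364 of these genes were higher (2.6%) and 492 lower (3.52%). Over all measured genes the median log2 ratio was -0.02, -0.01 and -0.01 with all 15, 14 and 13 members.

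Among the lists of somatic cell types, the pregranulosa and granulosa list had the highest median ratio, and the stroma and surface epithelium lists had slightly larger shares of higher genes. Of the 19 measured pregranulosa and granulosa genes, 16 were at least 2-fold higher in the member cells and 0 lower, with a median log2 ratio of 3.41. The median was 2.47 without P2.5_66 and 2.22, with 15 genes higher, in the 13 members without P2.5_66 and P2.5_314. Of the 15 stroma genes, 13 were higher and 0 lower, with medians of 2.82, 1.99 and 1.504 for the same 3 sets. Of the 10 surface epithelium genes, 9 were higher with all members, 5 without P2.5_66 and 4 without both libraries, and the medians were 2.49, 1.09 and 0.74. In the surface epithelium list, P2.5_66 decided 4 of the 9 genes. Many genes of these lists were measured through the members alone, namely 12 of the pregranulosa, 7 of the stroma and 6 of the surface epithelium genes, so these counts are a description. Among the genes with at least 1 CPM in the other cells, 5 of 7 pregranulosa genes, 7 of 8 stroma genes and 3 of 4 surface epithelium genes were higher and 0 lower. In the 13 members without P2.5_66 and P2.5_314, the same genes gave 5, 5 and 1 higher and 0 lower.

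Lists of other cell types had fewer genes past 2-fold, but the shares of higher genes in several were above that of all measured genes (10.1%). Of the 10 measured endothelium genes, 4 were higher and 0 lower (median log2 ratio 0.80). Of the 5 with at least 1 CPM in the other cells, 1 was higher, against 3.74% of all such genes. The summed endothelium list was above every other cell (highest 158.9 CPM) in P2.5_66, at 246.7 CPM, and within them in P2.5_314, at 49.6 CPM. In P2.5_66, 3 of the 14 genes were above every other cell, against 5.2% of all measured genes, and 7 had 0 counts. Among 5 measured perivascular and muscle genes, 2 were higher and 1 lower, and of the 4 with at least 1 CPM in the other cells, 1 was higher and 1 lower. Of the macrophage and immune list, 5 of 12 genes were measured, with 2 higher and 1 lower. Both higher genes were measured through the members alone, and of the other 3, 0 were higher and 1 lower. All 12 of these genes, among them the leukocyte surface gene Ptprc and the complement gene C1qa, and all 7 mast cell genes had 0 counts in P2.5_66, where 0 counts allow up to 0.345 CPM (3 counts). Of 6 steroidogenic genes, 2 were measured and 0 were past 2-fold by counts. The steroid dehydrogenase gene Hsd3b1, which the other cells also held (median 31.4 CPM, highest 142.7 CPM), had 117.2 CPM in P2.5_66, 134.2 CPM in P2.5_314 and 14.8 to 81.98 CPM in the other 13. The deposited FPKM, a level that allows for gene length, differed. Hsd3b1 had 53.02 FPKM in P2.5_66 and 43.09 in P2.5_314, against a median of 0.9 and a highest value of 27.68 in the other cells. With mean FPKM its log2 ratio was 2.16, against 0.66 from counts. Cyp11a1, which encodes the side-chain cleavage enzyme, had 0.115 CPM in P2.5_66 and 0 counts in the other 14 members, against up to 4.7 CPM in the other cells. Cyp17a1, which encodes the androgen-making lyase, had 12.1 CPM in P2.5_138, above every other cell (highest 1.71 CPM), and 0 counts in the other 14 members.

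**Figure D2:**
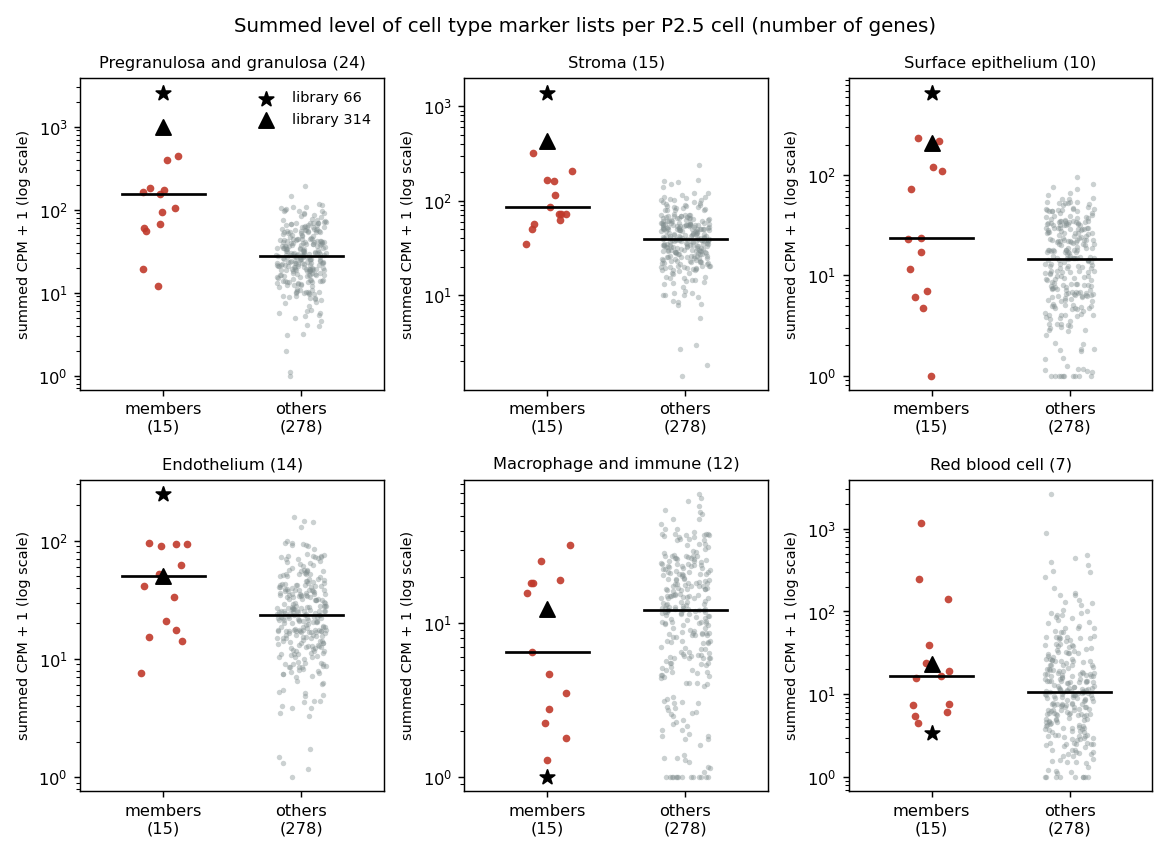
Summed CPM plus 1 (log axis) of 6 cell type marker lists per P2.5 cell, with the number of genes in brackets. Members are on the left (red points, with P2.5_66 as a star and P2.5_314 as a triangle) and all other P2.5 cells on the right, and bars are medians. P2.5_66 and P2.5_314 lie above every other cell for the pregranulosa, stroma and surface epithelium lists and within or below them for the immune and red blood cell lists. For the endothelium list, P2.5_66 lies above every other cell and P2.5_314 within them.

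Of the identity genes of the gonadal somatic lineage, Wt1, Gata4 and Nr5a1 were high in P2.5_66, only Wt1 of them was so in P2.5_314, and they were patchy elsewhere. Of the 24 genes of the pregranulosa list, 11 were above every other cell in P2.5_66 and 7 had 0 counts. In P2.5_314, 10 were above every other cell and 5 had 0 counts. Over all measured genes, 5.2% and 1.46% were above every other cell in these libraries. Wt1, which encodes a zinc finger factor, had 180.5 CPM in P2.5_66, 61.8 CPM in P2.5_314 and 0 to 39.5 CPM in the other 13 members, against 0 to 23.8 CPM in the other cells (median 0.0621 CPM). Gata4, its partner in the early gonad, had 182.9 and 20.3 CPM in P2.5_66 and P2.5_314 and up to 39.3 CPM in the other 13, against a highest value of 52.8 CPM in the other cells. Nr5a1, the nuclear receptor SF-1, had 61.4 and 15.2 CPM and 0 to 23.8 CPM, against 0 to 53.8 CPM. P2.5_66 was above all other cells for each of these 3 genes. For Wt1, P2.5_314, P2.5_138, P2.5_182 and P2.5_92 were above them too.

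Amhr2, the receptor for anti-Müllerian hormone (gene ENSMUSG00000023047.11, chr15:102445367-102454633, plus strand), was among the genes with the highest ratios. It had 404 CPM in P2.5_66, 232.4 CPM in P2.5_314 and 0 to 70.1 CPM in the other 13 members (median 1.28 CPM), against 0 to 46.01 CPM in the other cells (median 0). The ratio of the sums was 74.6 (71.1 to 78.3), and Amhr2 was measured through the members alone, with 0.99 CPM in the summed other cells. On the log2 scale it was 5.64 with all members, 4.88 without P2.5_66 and 3.88 without P2.5_66 and P2.5_314. P2.5_66, P2.5_314, P2.5_258 and P2.5_92 were above every other cell, and P2.5_267, P2.5_115, P2.5_193 and P2.5_176 had 0 counts. Amh, the gene of the hormone itself, had 0 counts in P2.5_66 and P2.5_314 and up to 1.254 CPM (P2.5_193) in the other 13, against up to 17.8 CPM in the other cells. The follicle-stimulating hormone receptor gene Fshr had 0 counts in all 15 members.

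Foxl2, a transcription factor that maintains granulosa identity (chr9:98955288-98958543, plus strand), went another way. It had 0 counts in P2.5_66, 0.82 CPM in P2.5_314 and 55.3 CPM in P2.5_267, and 0 to 7.06 CPM in the remaining 12 members. The other cells ran from 0 to 21.53 CPM with a median of 0. The highest Foxl2 level was therefore in a member whose Amhr2 and Kitl were at 0.

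The keratin Krt8, which pairs with the product of the rule gene Krt18, had 771 CPM in P2.5_66, 222.8 CPM in P2.5_314 and 0 to 54.5 CPM in the other 13, against 0 to 54.9 CPM in the other cells. Kctd14, a marker of granulosa cells in this list, had 105.2 and 58.3 CPM and 0 to 96.1 CPM, against 0 to 31.9 CPM. Besides P2.5_66 and P2.5_314, P2.5_267, P2.5_92 and P2.5_193 were above every other cell for Kctd14. Per length, in the deposited FPKM (a level that allows for gene length) of P2.5_66, Krt18 had a level of 635, Krt8 of 420.4, Inha of 204.4, Amhr2 of 181.7, Wt1 of 63.5 and Kitl of 42.9. In the same library the 9 germ cell markers ran from 6.03 FPKM for Taf4b to 1287 FPKM for Dppa3, and Krt18 stood below Dppa3 and above the other 8.

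Some secreted signals of the follicle wall were high in the same libraries, and most genes of this list are also in the pregranulosa list. Of the 14 signal genes, 5 were above every other cell in P2.5_66 and 6 in P2.5_314, against 5.2% and 1.46% of all measured genes. In each of the 2 libraries, 3 of these genes had 0 counts. Of 10 measured genes in the list of somatic signals, 8 were at least 2-fold higher and 0 lower (median log2 ratio 2.79, and 2.31 without P2.5_66). In the 13 members without P2.5_66 and P2.5_314, 6 were higher and 1 lower (median 1.75). Of these 10 genes, 5 were measured through the members alone, and 3 of the other 5 were higher with all members. Kitl, the ligand of KIT (chr10:100015630-100100416, plus strand), had 180.1 CPM in P2.5_66, 70.1 CPM in P2.5_314, 45.9 CPM in P2.5_182 and 0 to 15.8 CPM in the remaining 12, against 0 to 36.4 CPM in the other cells. These 3 members were above every other cell.

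Inha, the inhibin alpha subunit, had 298.8 CPM in P2.5_66, 111.3 CPM in P2.5_314 and 0 to 74.7 CPM in the other 13, against 0 to 48.7 CPM in the other cells. The 74.7 CPM were in P2.5_176, which had 0 counts of Amhr2. Fst, the activin-binding follistatin, had 35.8 and 49.7 CPM and 0 to 31.8 CPM, against 0 to 11.8 CPM. It passed the highest other cell in 6 members, namely P2.5_66, P2.5_314, P2.5_138, P2.5_267, P2.5_92 and P2.5_281. Wnt6 had 224.3 and 42.3 CPM and up to 84.4 CPM (in P2.5_267), against up to 33.7 CPM. Bmp2, a ligand made by pregranulosa cells, had 82.5 and 47.4 CPM and up to 12.1 CPM, against up to 17.4 CPM. Igf1 and Bmp7 overlapped the other cells in every member.

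Many genes of the surface epithelium list, which holds Lgr5, were high in P2.5_66, and some were high in P2.5_314 and further members. Of its 10 genes, 7 were above every other cell in P2.5_66 and 2 in P2.5_314. Lrrn4 went the other way, with a log2 ratio of -0.77, 0.115 CPM in P2.5_66 and 0.205 CPM in P2.5_314. In 12 members Lrrn4 lay below the other cells' median. Krt7 had a log2 ratio of 1.12 with all members and 0.03 without P2.5_66 and P2.5_314. For the surface epithelium list P2.5_66 had place 1 and P2.5_314 place 4 among P2.5 cells. Lgr5, a receptor for R-spondins (chr10:115450311-115587780, minus strand), had 158.3 CPM in P2.5_92, 139.2 CPM in P2.5_66, 62.6 CPM in P2.5_182, 38.5 CPM in P2.5_138 and 15.96 CPM in P2.5_314. The other 10 members had 0 to 6.35 CPM, and the other cells 0 to 12.3 CPM with a median of 0. Lgr5 gave a log2 ratio of 5.63 with all members, 5.31 without P2.5_66 and 5.39 without P2.5_66 and P2.5_314. This ratio leans on P2.5_92, the deepest member with 15506873 counts, and it was 4.73 without that library. The median over the 13 members was 0 CPM. Lgr5 had 0.393 CPM in the summed other cells, so it was measured through the members alone.

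Aldh1a2, which makes retinoic acid, had 201.2 CPM in P2.5_66, 62.7 CPM in P2.5_314, 71.5 CPM in P2.5_92, 54.8 CPM in P2.5_182, 39.8 CPM in P2.5_267 and 38.3 CPM in P2.5_138, against 0 to 40.2 CPM in the other cells. Of these, P2.5_66, P2.5_314, P2.5_92 and P2.5_182 were above every other cell. The uroplakin gene Upk3b, a mesothelial marker, was above every other cell (highest 60.7 CPM) in P2.5_66 alone, at 71.8 CPM, with 57.4 CPM in P2.5_314 and 0 to 17.4 CPM elsewhere among the members. Krt19 had its highest value, 102.5 CPM, in P2.5_267, against 26.2 and 22.7 CPM in P2.5_66 and P2.5_314 and up to 29.6 CPM in the other cells.

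Stromal genes came in part with the same libraries and in part in others. Col1a1 had 245.5 CPM in P2.5_66, 104.95 CPM in P2.5_267, 56.1 CPM in P2.5_281 and 49.6 CPM in P2.5_314, against 0 to 87.2 CPM in the other cells. Dcn, the collagen-binding decorin, had 227.4 and 75.9 CPM in P2.5_66 and P2.5_314 and 0 to 60.1 CPM in the other 13, against 0 to 67.7 CPM. Col6a2 had 205.2 and 121.9 CPM and 0 to 17.2 CPM, against 0 to 68.3 CPM, and its log2 ratio was 3.56 with all members, 2.60 without P2.5_66 and 0.69 without both. Pdgfra, the receptor of stromal progenitors, had 27.3 CPM in P2.5_281 and 26.4 CPM in P2.5_66 and at most 0.409 CPM in all other members, against up to 44.6 CPM in other cells. P2.5_281 had 0 counts of Krt18.

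**Figure D3:**
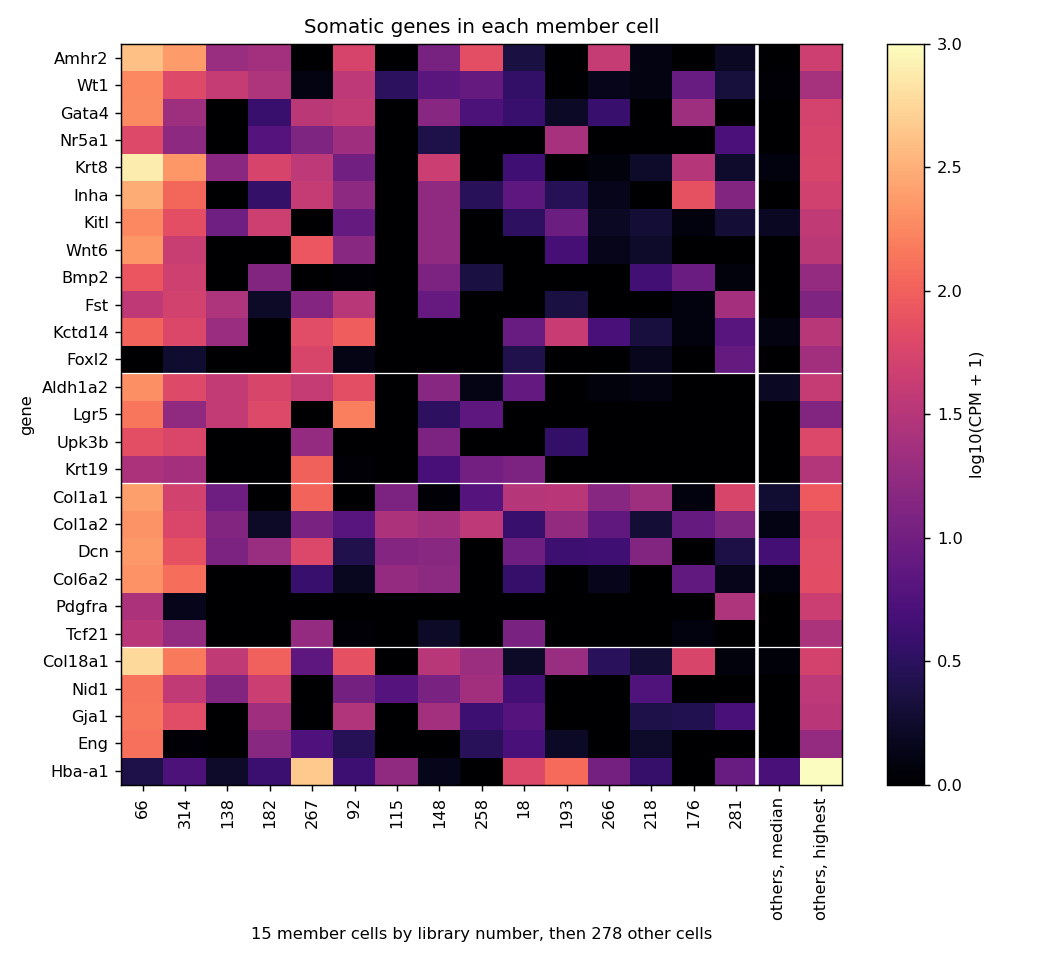
Heat map of log10(CPM + 1) for 27 somatic genes (rows) in the 15 member cells (columns, by library number in order of the score) and, right of the white line, the median and the highest of all other P2.5 cells. Rows are grouped as pregranulosa genes, surface epithelium genes, stroma genes and others. P2.5_66 and P2.5_314 carry most rows, P2.5_267 carries Foxl2, Krt19, Wnt6 and Hba-a1 without Amhr2, and P2.5_138, P2.5_182 and P2.5_92 carry Lgr5 and Aldh1a2.

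Some members thus differed in which somatic list they held. Of the genes in the 9 somatic cell type lists, 33 were above every other P2.5 cell in P2.5_66, 16 in P2.5_314 and 10 in P2.5_267. P2.5_138 and P2.5_92 had 6 each, P2.5_182 and P2.5_281 had 4 each, and the other 8 members 0 to 2. For these 8 members, so few genes cannot show which list they held. The pregranulosa, stroma, surface epithelium and endothelium lists hold 24, 15, 10 and 14 genes. The perivascular, immune, mast, red blood cell and steroidogenic lists hold 12, 12, 7, 7 and 6. Each count is out of all these genes, measured or not, and the percents that follow are over measured genes. Over all measured genes, the share above every other cell was 5.2% in P2.5_66, 1.94% in P2.5_267 and 1.46% in P2.5_314. It was 1.4% in P2.5_218, 1% in P2.5_176, 0.959% in P2.5_193, 0.907% in P2.5_115 and 0.843% in P2.5_138. In P2.5_266, P2.5_258 and P2.5_182 it was 0.72%, 0.701% and 0.675%, and it was 0.669% both in P2.5_92 and in P2.5_281. P2.5_148 and P2.5_18 had the lowest shares, 0.148% and 0.103%.

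The 4 highest P2.5 cells for the pregranulosa list were P2.5_66, P2.5_314, P2.5_267 and P2.5_92, and the 3 highest for the stroma list were P2.5_66, P2.5_314 and P2.5_267. P2.5_281 and P2.5_115 had places 5 and 6 for the stroma list. P2.5_218 had the lowest pregranulosa sum of the members, 10.96 CPM, below the other cells' median of 26.5 CPM, and it had place 6 for the perivascular list and place 10 for endothelium. These places rest on few genes. Its perivascular sum of 74.5 CPM came from 2 of 12 genes, and its endothelium sum of 93.4 CPM from 6 of 14. In the pregranulosa list 4 members were above the highest other cell (193.9 CPM), in the stroma list 3 and in the surface epithelium list 6.

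P2.5_267 also held hemoglobin transcripts. Its red blood cell list summed to 1170 CPM, second among all P2.5 cells, with 463 CPM of Hba-a1 and 455 CPM of Hbb-bs. P2.5_66 had 2.42 CPM and P2.5_314 had 22.5 CPM of that list, and the other cells had 0 to 2594 CPM with a median of 9.75 CPM. The globin rows have close copies, and the split of reads among them is uncertain. Hbb-bt was at 146.1 CPM in P2.5_267, and its log2 ratio of 1.22 turned to -0.41 without that library. The median of the red blood cell list, 0.84 with all members, was -0.22 without P2.5_267, and the log2 ratio of Hba-a1, 0.66 with all, was -0.54.

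P2.5_66 and P2.5_314 were compared with each other over the same genes. Both were above every other P2.5 cell for 1.24% of measured genes, and 35 of these genes were in a list. The 35 include the 5 genes of the score, which chose the members. No share over the list genes was computed, so the 35 are a count only. Across 73 somatic list genes with a count in either, their CPM had a Spearman correlation of 0.71, given as a description since genes are not independent. Among list genes at least 50 CPM over the other cells' median in P2.5_66, the excess in P2.5_314 was a median 0.357 of that in P2.5_66 for 10 pregranulosa genes (0.111 to 0.575). It was 0.253 for 8 stroma genes (0.0389 to 0.598), 0.193 for 5 surface epithelium genes (0.115 to 0.799) and 0.373 for 15 cytoskeletal genes (0.208 to 0.92). The ranges overlapped. Eng, an endothelial and stromal co-receptor, was at 124.4 CPM in P2.5_66 and 0.102 CPM in P2.5_314.

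Other protein-coding genes, in no list, were also above every other cell in both libraries, and a few with high levels are named here after their values were seen. Maged2 had 2150 CPM in P2.5_66, 896 CPM in P2.5_314 and 17.9 to 498 CPM in the other 13, against up to 221.03 CPM in the other cells. The autophagy receptor gene Sqstm1 had 1792 and 612 CPM and 102.8 to 511 CPM, against up to 496 CPM. The glutathione transferase genes Gstm1 and Gstm2, close copies of each other, had 973 and 950 CPM in P2.5_66 and 277.1 and 273.2 CPM in P2.5_314, against up to 132.1 and 86.2 CPM in other cells. The retinal dehydrogenase gene Aldh1a1 had 607 and 240.7 CPM and 0 to 199.1 CPM, against up to 85.9 CPM.

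Among genes that passed the rule for named genes, the 12 with the highest ratios were Myc, Col18a1, Thbs1, Amhr2, Cpe, Dmrta1, Axl, Krt8, Tgfb1i1, Hs3st1, S100a10 and Clic1. Their log2 ratios ran from 5.02 for Clic1 to 5.88 for Myc, a growth-promoting transcription factor. Without P2.5_66 they ran from 3.93 for Krt8 to 5.36 for Myc, and without P2.5_66 and P2.5_314 from 2.74 for Krt8 to 4.89 for Myc. Myc had 161.4 CPM in P2.5_66, 90.02 CPM in P2.5_314 and 0 to 89.1 CPM in the other 13 (median 0), against 0 to 40.9 CPM in the other cells. Thbs1, the matrix protein thrombospondin, had 554 and 156.6 CPM and 0 to 99.98 CPM, against up to 23.9 CPM. Tgfb1i1, an adaptor of focal adhesions, was above every other cell (highest 12.9 CPM) in 10 of 15 members, and each of the other 11 genes in 2 to 7 members. S100a10, a partner of annexin A2, was above the other cells' median (0.296 CPM) in all 15 members.

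Matrix and contact genes lie between the cell types. Of 12 basement membrane genes, 6 were higher and 0 lower (median log2 ratio 1.35, 0.92 without P2.5_66 and 0.65 without both). Col18a1, the precursor of endostatin (chr10:77052178-77166548, minus strand), had 589 CPM in P2.5_66, 145.3 CPM in P2.5_314 and 0 to 99.05 CPM in the other 13, against up to 51.3 CPM. The laminin genes Lamb1 and Lamc1 and the fibronectin gene Fn1, which oocytes also held, had log2 ratios of 0.25, 0.41 and -0.11. Of 12 junction genes, 4 were higher (2 without P2.5_66), and Cdh1, the E-cadherin gene, had 0.115 CPM in P2.5_66 against a median of 42.4 CPM in other cells, where 4 cells had 0 counts.

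Among the gap junction genes, the connexin known from oocytes and the one known from somatic cells differed. Gja4, the oocyte connexin 37, had 280.6 CPM in P2.5_66, 237.9 CPM in P2.5_314 and 83.4 to 429 CPM in the other 13, against a median of 284.8 CPM in other cells. Gja1, the somatic connexin 43 (ENSMUSG00000050953.10, chr10:56377330-56402513, plus strand), had 139.2 and 66.7 CPM and 0 to 28.95 CPM, against 0 to 32.7 CPM. Of 4 measured connexins, Gja1 alone was 2-fold higher, with a log2 ratio of 4.94, 4.27 without P2.5_66 and 3.69 without both. Gja1 was measured through the members alone.

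Amhr2, a receptor gene, and Gja1, a contact protein gene, were above every other P2.5 cell in both P2.5_66 and P2.5_314. The 250 bases before their start sites are shown (RefSeq, GRCm38.p6, plus strand of chr15:102445117-102445366 and chr10:56377050-56377299). Capitals mark AAGGTCA in the first, the letters that NR5A1 and related nuclear receptors are known to bind, and TGAGTCA in the second, the letters of the AP-1 factors FOS and JUN.
Amhr2: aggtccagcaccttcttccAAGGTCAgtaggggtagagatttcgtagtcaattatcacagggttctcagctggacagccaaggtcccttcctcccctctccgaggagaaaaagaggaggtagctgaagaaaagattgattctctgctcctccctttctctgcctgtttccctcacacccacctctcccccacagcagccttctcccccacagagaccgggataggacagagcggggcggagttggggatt
Gja1: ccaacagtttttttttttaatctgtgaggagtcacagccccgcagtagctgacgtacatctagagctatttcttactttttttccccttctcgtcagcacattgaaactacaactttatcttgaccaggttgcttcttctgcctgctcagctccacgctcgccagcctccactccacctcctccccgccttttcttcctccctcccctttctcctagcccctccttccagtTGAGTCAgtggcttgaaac
AAGGTCA, or TGACCTT on the other strand, was found in 4.08% of 32851 promoters of that length, and TGACTCA or TGAGTCA in 4.46%. The match lies near the upstream end of the window in Amhr2 and begins 19 bases before the start site in Gja1. A match describes these letters and shows no binding.

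Of 18 cytoskeleton and lectin genes, 12 were higher and 0 lower (median log2 ratio 2.11, and 1.27 with 9 higher and 1 lower without both libraries), and of the 15 with at least 1 CPM in the other cells 9 were higher. The annexin gene Anxa2, which links membranes to actin, had 877 CPM in P2.5_66, 256.9 CPM in P2.5_314 and 1.37 to 146.3 CPM in the other 13, against 0 to 71.5 CPM in the other cells (median 4 CPM), and 6 members were above all of them. The actin gene Actb, which all oocytes held, had 1903 and 1760.2 CPM and 957 to 1661 CPM, against 634 to 2062 CPM. Its log2 ratio was 0.17.

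Of 10 measured genes of the Notch pathway, 3 were higher and 0 lower (median log2 ratio 0.87, and 0.70 without both libraries), and of the 9 with at least 1 CPM in the other cells 2 were higher. Jag1, a ligand made by oocytes, had 3.34 CPM in P2.5_66, below the lowest other cell (5.42 CPM), and 70.4 CPM in P2.5_314 and 48.9 to 204.6 CPM in the other 13, against a median of 82.2 CPM. The targets Heyl and Hes1 had log2 ratios of 3.56 and 1.249 with all members, 2.69 and 0.85 without P2.5_66, and 2.62 and 0.81 without both libraries. Heyl was measured through the members alone. Hes1 had 200 CPM in P2.5_66, 50.8 CPM in P2.5_314, 193.9 CPM in P2.5_267 and 0 to 143.6 CPM in the remaining 12, against 0 to 216.3 CPM in the other cells, so all members overlapped them. The receptor Notch1 had 11.3 and 18.2 CPM and up to 51.8 CPM in the other 13 (P2.5_138), against up to 50.8 CPM.

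Of 19 measured genes in the list of immediate early and heat shock genes, 10 were higher and 0 lower (median log2 ratio 1.72, 1.21 without P2.5_66 and 0.64 without both). Over the 17 of them with at least 1 CPM in the other cells, 8 were higher and the median was 0.91. Jun had 624 CPM in P2.5_66, 126.9 CPM in P2.5_314 and 2.26 to 112.7 CPM in the other 13, against 0 to 72.2 CPM, and P2.5_66, P2.5_314, P2.5_182 and P2.5_267 were above every other cell. Ier3 had 183.8 and 82.5 CPM and 0 to 39.6 CPM, against up to 24.04 CPM. Egr1 had 1015 CPM in P2.5_66, 458 CPM in P2.5_314 and 105.4 to 661 CPM in the other 13, against 8.67 to 1484 CPM (median 167.6 CPM). The chaperones Hspa8 and Hsp90aa1 had log2 ratios of -0.04 and -0.05.

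In the summed counts of the 13 members without P2.5_66 and P2.5_314, few oocyte genes were past 2-fold. Over 7468 genes with at least 20 CPM in the other cells, 6 were 2-fold higher (0.0803%) and 11 were 2-fold lower (0.147%) in their sum. The median log2 ratios, over such genes, were -0.12 for the 17 genes of growth and the egg coat, -0.01 for 6 genes of the subcortical maternal complex, -0.20 for 18 meiotic prophase genes and -0.03 for 19 genes of the KIT, PI3K and mTOR pathway, against -0.06 for all such genes. None of these 4 lists had a gene past 2-fold in either direction. Per cell, the summed level of the KIT, PI3K and mTOR list was below the other cells' median in 10 of the 13, as were those of the glycolysis and cholesterol synthesis lists. The list of oocyte transcription factors was below it in 9 of the 13, and the growth and egg coat, subcortical complex and meiotic prophase lists in 7 each.

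P2.5_66 had lower levels of oocyte genes, as a share of its counts. Over the 7468 genes, 460 were 2-fold higher (6.16%) and 2363 were 2-fold lower (31.6%) than in the other cells, with a median log2 ratio of -0.45. Beside that background, 15 of 18 meiotic prophase genes (median -1.69), 13 of the 17 genes of growth and the egg coat (-1.45), and 5 of 6 genes of the subcortical maternal complex (-1.35) were lower. Of 9 germ cell markers, 5 were lower (-1.003), while 0 of 19 genes of the KIT, PI3K and mTOR pathway were higher and 7 lower (-0.44). Ribosomal protein genes had a median of 0.71 over 79 genes, and 8 of 14 glycolysis genes and 8 of 11 mitochondrial genes were 2-fold higher. Values as a share of counts cannot tell fewer oocyte transcripts from more transcripts of other origin.

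Kit, the receptor on the oocyte, had 191.8 CPM in P2.5_66, below the lowest other cell (351 CPM), 1173 CPM in P2.5_314 and 664 to 2633 CPM in the other 13, against a median of 1425 CPM. Trp63, which encodes a relative of p53 that removes oocytes with DNA damage, had 42.6 CPM in P2.5_66, below the lowest other cell (80.9 CPM), 228.3 CPM in P2.5_314 and 91.3 to 349 CPM in the other 13. Of 5133 genes with a count in every other cell, 3.72% were below all of them in P2.5_66 and 0% in P2.5_314. The egg coat genes Zp2 and Zp3 had 148.1 and 104.8 CPM in P2.5_66 and 1034 and 689 CPM in P2.5_314, against medians of 869 and 575 CPM in other cells, and all members overlapped the other cells. Tex11, a meiotic crossover gene, had 2.42 CPM in P2.5_66, below the lowest other cell (13.8 CPM), 83.98 CPM in P2.5_314 and 40.6 to 191.3 CPM in the other 13.

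In P2.5_314, 1.71% of the 7468 genes were 2-fold higher and 629 were 2-fold lower (8.42%), with a median of -0.17. Its medians were -0.26 for growth and egg coat genes, -0.28 for the subcortical maternal complex, -0.64 for meiotic prophase genes, 3 of 18 of them 2-fold lower, and 0.08 for the KIT, PI3K and mTOR pathway. Its growth genes stood at 1.05 times its germ cell markers by summed CPM, and those of P2.5_66 at 0.694 times, against a median of 0.848 in the other cells. Over all 15 members the ratio ran from 0.320 (P2.5_218) to 1.49 (P2.5_92) with a median of 0.847, and 7 of 15 were above the other cells' median.

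**Figure D4:**
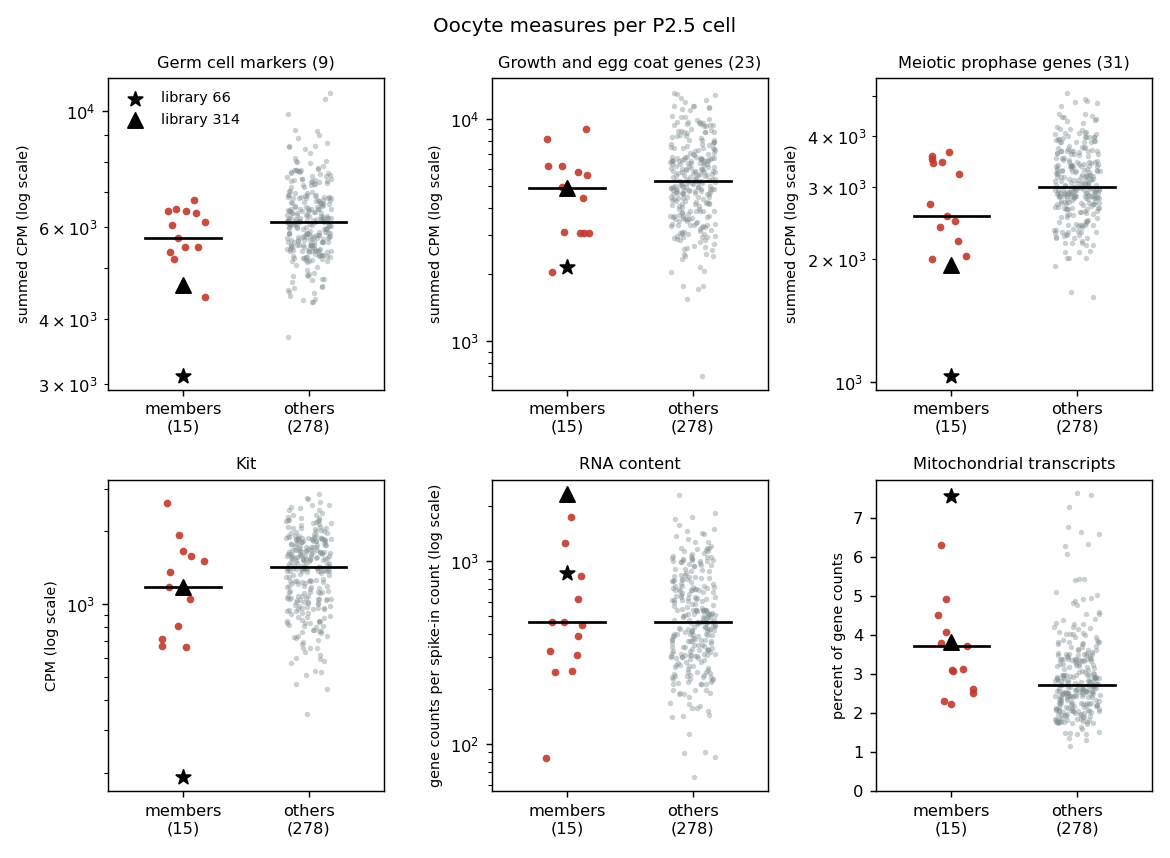
Per-cell values of 4 oocyte measures, gene counts per spike-in count (log axes) and the percent of counts from mitochondrial transcripts (linear axis), with members on the left and all other P2.5 cells on the right. Red points are 13 members, the star is P2.5_66, the triangle is P2.5_314 and bars are medians. P2.5_66 lies below every other cell for germ cell markers, meiotic genes and Kit, and P2.5_314 lies above every other cell for gene counts per spike-in count. The remaining members overlap the other cells in all panels.

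Gene counts per spike-in count, a measure of RNA per library that assumes an equal amount of spike-in, were 2311 in P2.5_314, above the highest other cell (2303), and 864 in P2.5_66, which 50 other cells exceeded. The 15 members had a median of 461 and a range of 83.8 to 2311, against a median of 466 and a range of 65.8 to 2303 in the other cells. The lowest member was P2.5_267. Germ cell marker counts per spike-in count were 2.69 in P2.5_66 and 10.7 in P2.5_314, against a median of 2.93 in other cells. On this scale P2.5_66 was close to the middle of the other cells.

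Mitochondrial transcripts took 7.56% of counts in P2.5_66 and 3.82% in P2.5_314, with a median of 3.74% over all members, against a median of 2.74% (1.16% to 7.66%) in the other cells. Of the 15 members, 11 were above that median. After each cell was thinned to 430000 counts, 11451 genes were detected in P2.5_66 and 13034 in P2.5_314, and the members' median was 11871, against a median of 11882 in the other cells. The part of mitochondrial content or depth in the gene results was not tested.

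Among genes lower in the members, 10 passed the rule for named genes: Nxf2, Taf7l, Sdcbp2, Tmem106a, Xlr3b, Zfp541, Tmem231, Poln, Tiam1 and Rab36, with log2 ratios from -1.66 to -1.002. Without P2.5_66 the last 5 of them, Zfp541 (-0.95), Tmem231 (-0.92), Poln (-0.91), Tiam1 (-0.89) and Rab36 (-0.88), fell short of 2-fold. Without P2.5_66 and P2.5_314, Poln (-0.83), Tiam1 (-0.90) and Rab36 (-0.84) did. Nxf2, a germline RNA export factor gene on the X chromosome, had 0.23 CPM in P2.5_66, 5.22 CPM in P2.5_314 and 0 to 70.2 CPM in the other 13 (median 1.24 CPM), against 0 to 537 CPM in other cells (median 12 CPM). Taf7l, a germ cell TFIID subunit gene, had 0 counts in P2.5_66, 15.96 CPM in P2.5_314 and 0 to 69.4 CPM in the other 13, against 0 to 692 CPM (median 14.4 CPM). For both, every member lay inside the range of the other cells.

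Most cell cycle and death genes stayed within 2-fold, and over all measured genes 10.1% were higher and 2.74% lower. Of 22 proliferation genes, 2 were higher and 0 lower (median log2 ratio -0.08). They were Ccnd2, the granulosa cyclin D2, and the inhibitor gene Cdkn1a. Ccnd2 had 280.2 CPM in P2.5_66, 52.99 CPM in P2.5_314 and 0.717 to 74.2 CPM in the other 13, against 0 to 56.4 CPM. Of 16 death and checkpoint genes, 3 were higher (median 0.16). Among genes with at least 1 CPM in the other cells, 2 of 21 proliferation genes and 3 of 16 death and checkpoint genes were higher. The share over all such genes was 3.74%. The pro-apoptotic gene Bbc3 had 28.9 and 25.5 CPM in P2.5_66 and P2.5_314 and 0 to 157.7 CPM in the other 13 (median 0.098 CPM), against 0 to 125.9 CPM, and P2.5_92 alone was above every other cell.

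The score was also read at the other stages. Of 22 E17.5 libraries, 11 reached the score of the fifteenth member, with a median of 104.6 CPM and a highest value of 2325 CPM. Of 47 P6.5 libraries, 2 did so, with a median of 1.49 CPM and a highest value of 373 CPM. The pregranulosa list had a median of 154.3 CPM in the 15 members, against 110.03 CPM in E17.5 libraries, 20.2 CPM in P6.5 libraries and 26.5 CPM in the other P2.5 cells. The members were chosen for a high score, whereas the medians of E17.5 and P6.5 are over all their libraries, so these sets are unlike.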

How the data were processed

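Single female germ cells of mice were sequenced with Smart-seq2 and 150-base paired reads, per the labels. The authors deposited raw counts per gene (54658 gene rows and 92 spike-in rows) and FPKM values, 1 column per library. Per the submitters' processing notes, the tools included HTSeq 0.13.5, RSEM 1.3.3 and STAR 2.7.10b, with mm10 as genome build. Their settings, the annotation and the spike-in amount were not given in the sources used here.

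Counts were used for all results, and the deposited FPKM only for levels between genes, for Hsd3b1 between cells and for 1 alternative. CPM excluded spike-ins. Library pairs in which both were the other's closest match, with a median chi-square under 1.5 over genes with at least 20 counts, were summed as 1 cell (24 pairs, highest value 1.03, while the lowest of a pair kept apart was 2.31). Counts were then summed over members and over other cells. The ratio code and the pair search were tested on simulated data. No doublet caller was run, since other cells' transcripts are the subject. Genes with close copies can share reads, and their split is uncertain.

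The members and the 26 hand-written gene lists (362 genes) were chosen with earlier results of these data known. Ribosomal protein and mitochondrial genes were set by symbol. Named genes were up to 12 at each end of the ratio, with at least 20 CPM in the higher sum, detection in 50% of that group's cells and a 2-fold difference both in the ratio and in mean CPM. Up to 3 genes at each end of each list with at least 5 CPM were added, as were Ddx4, Dazl, Dppa3, Kit, Foxl2, Amhr2 and the 5 genes of the score. Genes outside it that the text names, such as Wt1, Gata4, Wnt6, Kctd14, Krt19, Col1a1, Pdgfra, Egr1, Zp2, Zp3 and genes with 0 counts, were chosen after their values were seen. Python 3.11.15, pandas 2.3.3, numpy 2.4.6, scipy 1.17.1 and, for TMM factors, edgeR were used. Alternatives changed the score, the number of members, the comparison cells, weights, scaling, pseudocount, filters and fold, and left out each member.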

Additional observations from a re-analysis of the deposited data

How the results depend on the processing

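Under 23 alternatives, and without each member in turn, 28 list medians and the named genes were recomputed with the filter on low values applied afresh. The score without each of its 5 genes, or from FPKM, kept 12 to 14 of the 15 members. Genes 2-fold higher, 1575 or 10.1% of those measured, were 950 (6.92%) with mean FPKM, 787 (5.06%) with a pseudocount of 2 CPM, 654 (5.83%) with at least 5 CPM, 580 (4.85%) with the median CPM over cells 591 (3.80%) at 4-fold and 524 (3.74%) with at least 1 CPM in the other cells. Genes lower, 426 or 2.74%, were 69 (0.444%) with a pseudocount of 2 CPM, 0.909% with at least 5 CPM and 18 (0.116%) at 4-fold. Leaving out 1 member gave 8.37% to 11.1% higher and 2.73% to 3.41% lower. The median of the immediate early and heat shock list, 1.72, was 1.41 with 20 members, 1.28 with FPKM, 0.91 with no filter, 0.91 with at least 1 CPM in the other cells, 1.26 with the median over cells, 0.64 without P2.5_66 and P2.5_314, and 1.21 to 1.81 with 1 member left out. Other medians that moved were Notch (0.47 with no filter), endothelium (2.61 with at least 5 CPM), macrophage and immune (-1.44 with at least 5 CPM and -2.11 with the median over cells), junctions (-0.18 with the median over cells) and cytoskeleton (1.66 with the median over cells and 1.55 without P2.5_66 and P2.5_314). Gpm6a had a log2 ratio of -0.66, against 2.26 with all members, without P2.5_66 and P2.5_314, and Hbb-bt was -0.41 to 1.42 with 1 member left out (1.22 with all), and below 0 without P2.5_267. Hsd3b1 moved to a log2 ratio of 2.16 with mean FPKM, against 0.66 in the main result. With 1 member left out, the median of the red blood cell list was -0.22 to 1.01 (0.84 with all, below 0 without P2.5_267) and that of the macrophage and immune list -0.39 to 0.72 (0.53 with all, below 0 without P2.5_18). The cause was not tested. Leaving out both libraries, the median over cells and the filter on the other cells alone were chosen after seeing the data. TMM, median-of-ratios and spike-in scaling moved the median of all genes by 0.0416 or less. No paired analysis was possible because replicate numbers only name libraries and the cells compared all carry 1 label, P2.5, and values of the 3 stages were not tested. Low genes in 1 library are limited by depth, since 3 counts are 0.193 to 1.88 CPM among the members.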
